A study of Mus musculus with 15 samples.

Results

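The probe sets described here belong to 6 early response genes, the Nr4a nuclear receptors Nr4a1, Nr4a2 and Nr4a3 and the immediate early response genes Ier2, Ier3 and Ier5. They were chosen by gene symbol, as every probe set whose single annotated symbol was one of these names, which gave 6 probe sets of the 22206 on the array and 6 symbols of 19505. The arrays came from purchased mouse lymphatic endothelial cells (LECs), grown in DMEM with 10% serum, which the labels call a cell line and the study also calls primary cells. In the study the cells received angiotensin II (Ang II), the peptide hormone of the renin-angiotensin system, and the arrays were meant to follow gene expression over time. There were 5 arrays of cells kept in Ang II at 500 nM for 24 h, 5 of cells kept in it for 12 h and 5 of saline control cells, which carry no dose and no stated harvest time, so that Ang II and time in culture cannot be told apart. The methods of the study give the dose both in this way and as a far lower one, and the sample labels give 500 nM. The labels number the replicates without saying whether each was a culture of its own, so the p-values measure only how far these samples spread, and that spread may be technical.

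The Nr4a receptors are orphan members of the nuclear receptor family, which bind DNA without a known classical ligand, so that their activity follows largely from how much receptor a cell makes. Their genes are switched on quickly and briefly by hormones, growth factors and calcium, through cAMP response elements (CREs) among other sites, and in adrenal cells Ang II is a known inducer. The Ier genes are named for the same quick and brief induction, and their products act mainly through phosphatases, kinases and transcription factors. The first arrays were taken at 12 h, so the values describe later levels and not the first response.

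RefSeq promoter windows of the 250 bases before the start site (GRCm38.p6) were found for 5 of the 6 members, and Ier2 is only named. The CRE core, TGACG on either strand, occurred 4 times in the window of Nr4a1, 4 times in that of Nr4a2 and 4 times in that of Nr4a3, and it did not occur in the windows of Ier3 and Ier5. Of 32851 RefSeq windows of the same length, 17.8% held at least 1 core and 0.137% held at least 4. The stretches below are shown because the cores are what the 3 receptor promoters share, with the cores in capitals, and for Nr4a1 and Nr4a3, whose windows lie wholly or mostly within the annotated bounds of the gene, only 30 bases with 2 of the 4 cores are given.
Nr4a1, chr15:101266608-101266637, plus strand: ccctgCGTCAatggaaccccgcgtgCGTCA
Nr4a2, chr2:57124105-57124208, minus strand: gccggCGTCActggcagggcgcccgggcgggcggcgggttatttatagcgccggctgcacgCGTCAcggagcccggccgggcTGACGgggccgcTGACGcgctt
Nr4a3, chr4:48045067-48045096, plus strand: aggagggTGACGtagcgtcccatgtCGTCA
The full palindromic CRE, TGACGTCA, which itself holds 2 overlapping cores, was not found in the 5 windows, and 1.55% of all windows held it. The AP-1 site TGANTCA (6.75% of all windows), the monomer site of the Nr4a receptors themselves, AAAGGTCA (1.34%), and the CArG box of serum response factor (1.47%) were searched on both strands, and TATAAA (7.59%) on the given strand, without a match in the 5 windows. A kappaB site was found once, in the window of Ier3, against 3.90% of all windows. These matches describe letters in a window and were not tested for binding or activity in these cells.

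Nr4a1 lies on chromosome 15 (101253902 to 101274795), Nr4a2 on chromosome 2 (57106830 to 57124003) and Nr4a3 on chromosome 4 (48045078 to 48086447). Ier2 lies on chromosome 8 (84661331 to 84662852), Ier3 on chromosome 17 (35821713 to 35822911) and Ier5 on chromosome 1 (155096367 to 155099636). These are the gene bounds of the RefSeq table for GRCm38.p6, and no source used here names the build behind the probe sets themselves. Each gene was represented by 1 probe set, TC1500001067.mm.2 for Nr4a1, TC0200003560.mm.2 for Nr4a2, TC0400000529.mm.2 for Nr4a3, TC0800002585.mm.2 for Ier2, TC1700000703.mm.2 for Ier3 and TC0100003300.mm.2 for Ier5.

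All levels are log2 expression values after RMA normalization, as deposited, and array medians lay between 4.80 and 4.84. Replicate 3 at 24 h and replicate 3 of the control cells stood apart from the rest, with mean correlations with the other arrays of 0.962 at 24 h and 0.957 in the control cells. Fold changes of the members against control that turn or move by over 1.5 times without both are therefore given both ways. Outside the members, values without both were computed only for the early genes that passed at 24 h. Whether the values of other genes rest on those arrays was not tested. As a rough mark of low signal, 487 probe sets of receptor, keratin-associated and defensin families with tissue-restricted expression had a median level of 4.66 and a 95th percentile of 6.26. Of all probe sets on the array, 14.5% had a mean above that percentile. Of the lymphatic markers 1 of 8 lay above that percentile (Ccl21a), and Prox1 (5.09), Flt4 (4.62), Lyve1 (4.32), Cdh5 (4.54) and Pecam1 (3.73) lay below it. None of 10 general endothelial markers lay above it, against 0 of 9 fibroblast and mural, 1 of 6 leukocyte (Ptprc) and 2 of 6 epithelial markers (Krt8 and Krt18). Levels depend on the probes, so a probe set below the mark is not shown to be silent, and the arrays do not settle the cell type. The study also identified the cells by staining and PCR, not analysed here. Averaged over the list, the lymphatic markers ranged from 4.59 to 4.79 on the arrays at 24 h, from 4.58 to 4.77 at 12 h and from 4.53 to 4.84 in the control cells.

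The 6 members themselves gave mostly low signal by this mark, as did most probe sets on the array, of which 14.5% lay above it. Ier5 was the only member whose mean over the arrays lay above the 95th percentile of the low-signal families, on 13 of 15 arrays, while Nr4a2 lay above it on 3 arrays and the other 4 members on none. Nr4a1 and Nr4a3 lay above the median of those families on 14 of 15 arrays, and Ier2 and Ier3 lay below that median on all 15. The median of the means of all probe sets was 4.81. Nr4a1 (5.08), Nr4a2 (5.79), Nr4a3 (5.14) and Ier5 (6.60) had means above it, and Ier2 (3.74) and Ier3 (3.60) below it. Differences in all members but Ier5 are thus differences between low values, which limits what their size says about the transcripts. Since cells were profiled in bulk, fewer cells with a transcript and less of it per cell cannot be told apart.

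Nr4a3, also known as Nor1, is a receptor linked to growth of vascular smooth muscle and endothelial cells. Its probe set read 4.88, 5.24, 4.67, 5.26 and 4.09 after 24 h of Ang II, 5.53, 4.74, 5.82, 4.97 and 4.70 at 12 h, and 5.32, 5.35, 5.37, 5.40 and 5.80 in the control cells. Every array at 24 h was lower than every control array, and at 12 h the arrays were split, with 3 below every control and 1 above every control. The means were 4.83 ± 0.48 at 24 h, 5.15 ± 0.50 at 12 h and 5.45 ± 0.20 in the control cells (SD, n = 5 each). At 24 h the log2 fold change was -0.62 (SE 0.23, 95% confidence interval -1.10 to -0.14). This difference did not pass the test over all probe sets (limma, unadjusted p = 0.0144, Benjamini-Hochberg adjusted p = 0.598), and 526 is its rank by p among the 22206.

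At 12 h the log2 fold change of Nr4a3 was -0.30 (interval -0.78 to 0.19, limma adjusted p = 0.967). Set directly against 12 h, the arrays at 24 h were lower by a log2 fold change of -0.32 (limma adjusted p = 0.915), so no difference between both times was shown. The control values were close together apart from replicate 5 and the treated values were wide, and among all probe sets the residual SD of Nr4a3 (0.417) lay at the 89.9th percentile, against a median of 0.283. Ang II 24 h replicate 5, at 4.09, was the lowest of the 15 arrays, and without it the log2 fold change at 24 h was -0.44 (unadjusted p = 0.0600 by limma). Without both arrays that stood apart it was -0.60 (limma unadjusted p = 0.0396, adjusted p = 0.867).

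**Figure D1:**
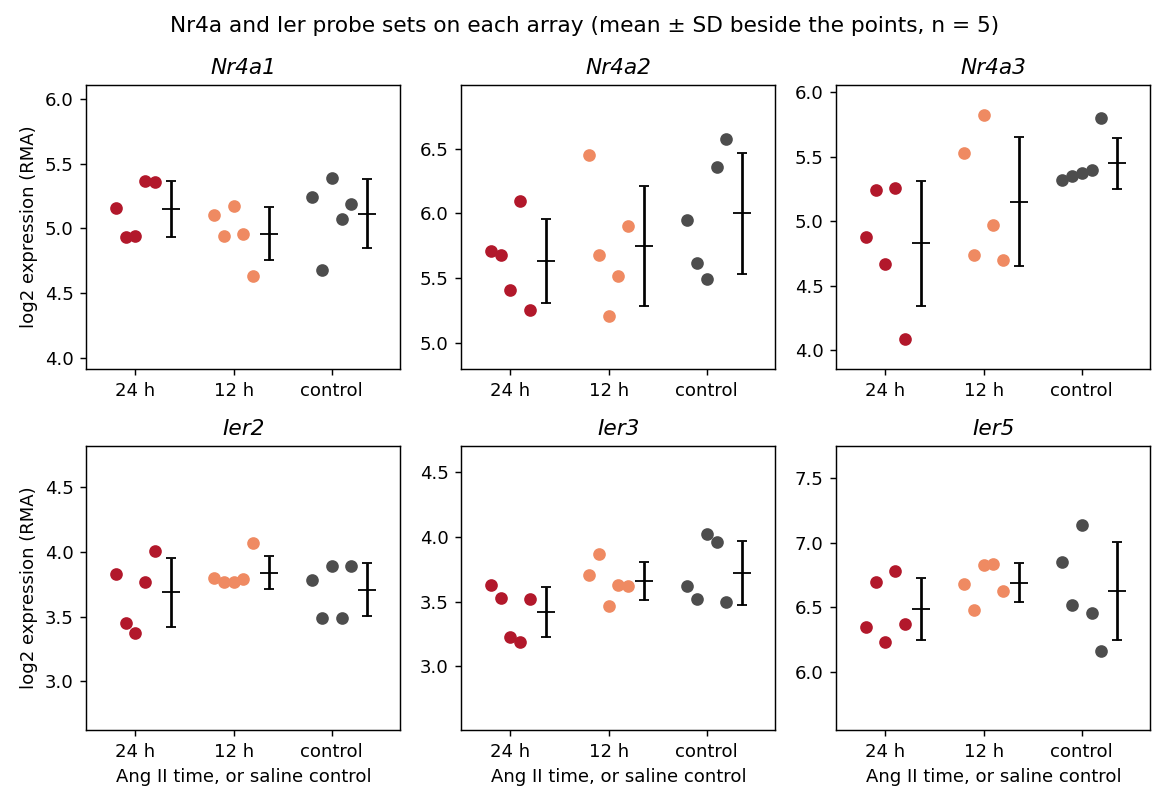
Log2 expression (RMA) of the 6 members on each array, with Ang II 24 h, Ang II 12 h and saline control from left to right, replicates 1 to 5 as points and the mean ± SD (n = 5) beside them; every panel spans the same height on the log2 scale. For Nr4a3 all 5 arrays at 24 h lie below the lowest control value of 5.32, and in the other 5 panels the groups overlap.

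Nr4a2 (Nurr1), a receptor best known for its part in dopamine neurons, read 5.71, 5.68, 5.41, 6.10 and 5.25 after 24 h of Ang II, 6.45, 5.68, 5.21, 5.52 and 5.90 at 12 h, and 5.95, 5.62, 5.49, 6.36 and 6.58 in the control cells. The highest control arrays were replicates 4 and 5, and 2 of the 5 arrays at 24 h lay below every control, while the rest overlapped. The log2 fold change was -0.37 at 24 h (SE 0.23, interval -0.86 to 0.12, limma adjusted p = 0.780) and -0.25 at 12 h (adjusted p = 0.974), the second being -0.3755 without both arrays that stood apart. Its residual SD of 0.424, at the 90.9th percentile, was like that of Nr4a3, and the interval at 24 h held both lower and higher values.

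Nr4a1 (Nur77), a receptor known from T cell selection and steroid-producing cells, read 5.16, 4.93, 4.94, 5.37 and 5.36 after 24 h of Ang II, 5.10, 4.94, 5.17, 4.96 and 4.63 at 12 h, and 5.24, 4.68, 5.39, 5.07 and 5.19 in the control cells. The control range held all 5 arrays at 24 h and 4 of the 5 at 12 h. The log2 fold change was 0.04 at 24 h (SE 0.16, interval -0.29 to 0.37, limma adjusted p = 0.982) and -0.15 at 12 h (adjusted p = 0.975). Without both arrays that stood apart these were 0.16 at 24 h and -0.085 at 12 h.

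Ier5, whose human product brings a protein phosphatase to the heat shock factor HSF1, was the member with the highest share of arrays above the low-signal mark. It read 6.35, 6.70, 6.23, 6.78 and 6.37 after 24 h of Ang II, 6.68, 6.48, 6.83, 6.84 and 6.63 at 12 h, and 6.85, 6.52, 7.14, 6.46 and 6.16 in the control cells. The control arrays held both the highest and the lowest of the 15 values, so every treated array lay within the control range. The log2 fold change was -0.14 at 24 h (SE 0.17, interval -0.50 to 0.22, limma adjusted p = 0.920) and 0.07 at 12 h (adjusted p = 0.992). Control replicate 3, which stood apart, held the highest value of 7.14, and without it and Ang II 24 h replicate 3 the value at 24 h turned to 0.05 and that at 12 h was 0.1945.

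Ier3 (IEX-1), a regulator of ERK signaling and cell survival, read 3.63, 3.53, 3.23, 3.19 and 3.52 after 24 h of Ang II, 3.71, 3.87, 3.47, 3.63 and 3.62 at 12 h, and 3.62, 3.52, 4.02, 3.96 and 3.50 in the control cells. At 24 h all 5 arrays lay below the control mean, 2 of them below every control array, and the others overlapped with the lower controls. The log2 fold change was -0.30 at 24 h (SE 0.15, limma unadjusted p = 0.0519, adjusted p = 0.702) and -0.06 at 12 h (adjusted p = 0.991). The difference at 24 h rested partly on the 2 arrays that stood apart, without which it was -0.18 (limma adjusted p = 0.942), and the value at 12 h then turned to 0.01.

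Ier2, which encodes a nuclear protein of the early growth factor response, read 3.83, 3.45, 3.37, 3.77 and 4.01 after 24 h of Ang II, 3.80, 3.77, 3.77, 3.79 and 4.07 at 12 h, and 3.78, 3.49, 3.89, 3.49 and 3.89 in the control cells. The 3 groups overlapped, and the arrays at 12 h lay within 0.03 of each other apart from replicate 5. The log2 fold change was -0.02 at 24 h (SE 0.15, interval -0.33 to 0.29, limma adjusted p = 0.991) and 0.13 at 12 h (adjusted p = 0.978), and the value at 24 h turned to 0.1025 without both arrays that stood apart.

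**Figure D2:**
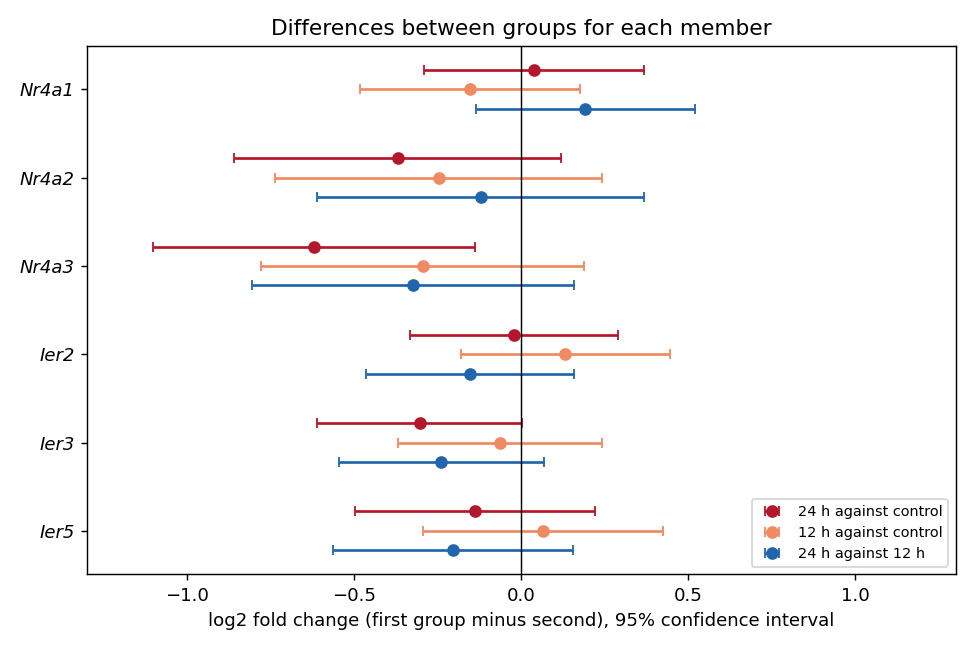
Log2 fold changes of the 6 members (points) with 95% confidence intervals (bars) for Ang II 24 h against control, Ang II 12 h against control and Ang II 24 h against 12 h, from the limma fit over 15 arrays. The interval of Nr4a3 at 24 h (-1.10 to -0.14) is the only one of the 18 that does not cross 0.

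Across the 6 members, none was called at an adjusted p under 0.05 at 24 h against control, where 0.0180% of all probe sets were, none at 12 h (0.00% of all), none at 24 h against 12 h (0.0225%) and none in the F test over the 3 groups (0.0225%). Before adjustment 1 member, Nr4a3, was lower at 24 h with a limma p under 0.05, where 3.46% of all probe sets were, and none was higher (3.64% of all). No member had an unadjusted p under 0.05 at 12 h (4.91% of all) or at 24 h against 12 h (5.99%). Groups did not overlap for 1 member at 24 h (Nr4a3, 1.07% of all), for none at 12 h (0.689%) and for none between the times (1.20%). The F test gave Nr4a3 an unadjusted p of 0.0464 and an adjusted p of 0.793, and the other members adjusted p-values between 0.851 and 0.950.

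At 24 h the mean of 5 of the 6 members was lower than in the control cells, with a median log2 fold change of -0.22, where 48.9% of all probe sets were lower and the median was 0.004. At 12 h 4 of the 6 were lower, with a median of -0.11 and 49.7% of all probe sets lower. Both comparisons share the control arrays, so their directions are not separate observations. Without both arrays that stood apart, Ier2 (0.1025) and Ier5 (0.0525) turned higher at 24 h, and Ier3 (0.01) turned higher at 12 h. The counts of lower members against control thus rested partly on those arrays. For 24 h against 12 h, which leaves the controls out, 5 of the 6 were lower with a median of -0.18, where 48.6% of all probe sets were lower and the median of all was 0.006. This comparison shares the arrays at 24 h with the first one, so its direction is no separate observation either. Of the 6 values against 12 h the highest was 0.19 for Nr4a1 and the lowest -0.32 for Nr4a3.

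The members were also compared with each other over the 15 arrays. Of their 15 pairs, Nr4a2 and Nr4a3 had the highest Pearson correlation (r = 0.47, permutation p = 0.0792, Spearman rho = 0.35, permutation p = 0.202). After Benjamini-Hochberg adjustment over the 15 pairs the p-values were 0.868 for r and 0.894 for rho. Without the 2 arrays farthest from the median of Nr4a2 r was 0.23, and with the group means removed it was 0.34. Nr4a1 and Ier2 had the highest rho (0.37, permutation p = 0.168, adjusted p = 0.894), with r = 0.31 (adjusted permutation p = 0.868). Without the 2 arrays farthest from the median of Nr4a1 their r was 0.67, and with the group means removed it was 0.50. Within the groups it was 0.89 at 24 h, -0.88 at 12 h and 0.81 in the control cells. By the permutation tests neither pair was distinguishable from the spread between arrays.

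The probe sets whose values ran most like each member were sought among 2847 probe sets of other genes above the low-signal mark (2846 for Ier5), by Pearson correlation over the same 15 arrays, as a description only. For Nr4a3 these were Klf9, a Krueppel-like factor regulated by hormones (r = 0.78), Cyld, a deubiquitinase that restrains NF-kB signaling (r = 0.73), and Fosb, a subunit of the early AP-1 factors (r = 0.71). With the group means removed the values, pooled over the groups, were 0.66 for Klf9, 0.60 for Cyld and 0.53 for Fosb. Correlation within each single group was not computed. In the control cells the highest Klf9 value (8.49) was on replicate 3, which stood apart and where Nr4a3 read 5.37. No Klf9 fold change was computed without that array. Klf9 lay between 6.21 and 7.12 after 24 h of Ang II, between 6.56 and 8.10 at 12 h and between 7.31 and 8.49 in the control cells, with a log2 fold change at 24 h of -0.94 that did not pass (limma adjusted p = 0.486). Fosb lay between 8.44 and 8.89 after 24 h and between 8.97 and 9.44 in the control cells. Like Nr4a3 and Klf9 it thus had no overlap at 24 h, a pattern of 1.07% of all probe sets. Its log2 fold change of -0.53 did not pass either (limma adjusted p = 0.491). These genes were picked for values like those of Nr4a3 on the same arrays. Neither the shared separation nor the correlations with group means removed are therefore separate observations.

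For Nr4a2 the most alike were Kdelr2 (r = 0.75), Fbxo32 (0.74) and Tubb2b (0.73), and for Nr4a1 they were Vps11 (0.74), H2bc13 (0.73) and Cux1 (0.69). For Ier5 they were Tsfm (0.84), Ctr9 (0.78) and Ergic1 (0.77), for Ier3 Kpna6 (0.81), Galnt2 (0.79) and Rbm4 (0.78), and for Ier2 Rab5c (0.79), Nfe2l1 (0.75) and Csnk1e (0.74). None of these 15 had an adjusted p under 0.05 at 24 h, and no gene was among the 3 closest of more than 1 member. These genes were the closest of a large number of candidates, so the correlations describe these arrays only.

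**Figure D3:**
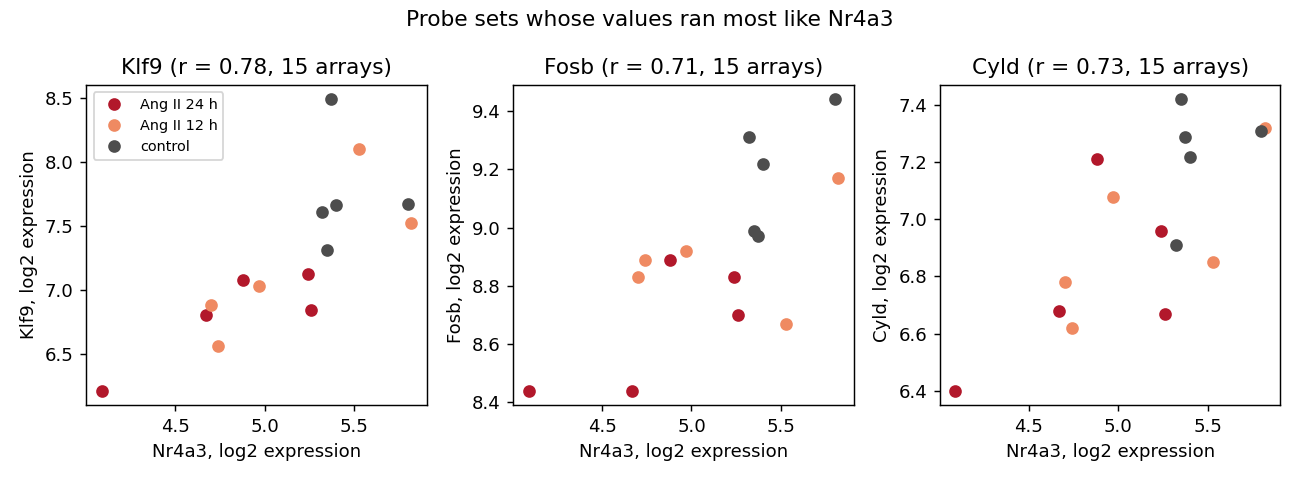
Log2 expression of Klf9, Fosb and Cyld (vertical axes) against that of Nr4a3 (horizontal axes), 1 point per array, with Ang II 24 h, Ang II 12 h and control marked by colour. The correlations over the 15 arrays are 0.78, 0.71 and 0.73, and the 5 control arrays lie above all 5 arrays at 24 h for Klf9 and Fosb, while for Cyld they overlap. These genes were picked for their likeness to Nr4a3 on the same arrays.

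Other early genes were examined beside the members, in lists drawn up with earlier results of these data known, and the 4 probe sets of these lists that passed at 24 h are all of those that passed on the array (0.0180%). Of 26 probe sets of other early transcription factors, 3 fell at 24 h (Hes1, a Notch-induced repressor, with a log2 fold change of -1.30, Egr3, a zinc finger factor, by 1 of its 3 probe sets with -1.20, and Myc with -0.80, with limma adjusted p-values of 0.00155, 0.0118 and 0.0320) and none rose. The identifier of this Egr3 probe set marks it as unmapped, and the other Egr3 probe sets had -0.25 and -0.01. Before adjustment 7 of the 26 were lower and 3 higher with a limma p under 0.05 (3.46% and 3.64% of all), and the highest value was that of Jun, a subunit of AP-1, named after its values were seen, at 0.77 (adjusted p = 0.491). Leaving out 1 array in turn took the call from Myc for 13 of 15 arrays (the exceptions were replicate 2 at 24 h and replicate 4 at 12 h, adjusted p up to 0.137) and from Egr3 for 5 of 15 (Ang II 24 h replicates 3, 4 and 5 and control replicates 3 and 5, adjusted p up to 0.0662). Of 30 early signaling and RNA-binding genes, Dusp10, a phosphatase of p38 and JNK, fell with -1.45 (limma adjusted p = 0.00134) and, like Hes1, kept its call whichever array was left out, while Pim1 (-0.87, adjusted p = 0.307) and Plk2 (-0.47, adjusted p = 0.565) did not pass. The first list had a median of -0.15 and the second of -0.10, and the members with their median of -0.22 were not tested against them. Among 14 of 16 early secreted and surface genes none passed, and the median was 0.005, with Lif at -0.88 (limma adjusted p = 0.519), Edn1 at 0.38 and Adm at -0.26. At 12 h no probe set of these lists passed, and at 24 h against 12 h Dusp10 (-1.06, limma adjusted p = 0.0424) and Myc (-0.77, adjusted p = 0.0451) did, both lower at 24 h.

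**Figure D4:**
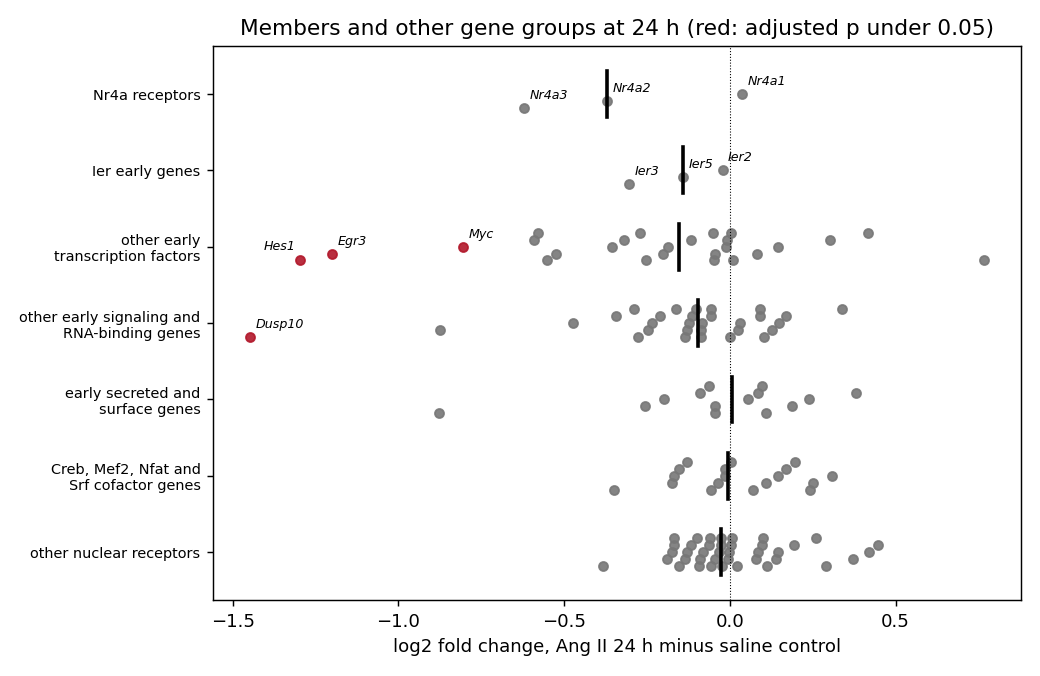
Log2 fold changes at 24 h against control for the probe sets of the members and of 5 other gene lists, 1 point per probe set, with a black bar at each list's median and probe sets with a limma adjusted p under 0.05 in red. The 4 red points are Hes1, Egr3, Myc and Dusp10, and the members lie between -0.62 (Nr4a3) and 0.04 (Nr4a1).

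Nuclear receptors that work with or beside the Nr4a family did not pass at either time. The retinoid X receptors, with which Nr4a1 and Nr4a2 can pair on DNA, had log2 fold changes at 24 h of -0.21 (Rxra), -0.09 (Rxrb) and -0.02 (Rxrg). Of 39 probe sets for 36 of 42 other nuclear receptor genes, none passed, while 3 had a higher and 1 a lower mean with an unadjusted p under 0.05 (3.64% and 3.46% of all probe sets), and the median was -0.03. Those with the smallest p were Pparg (0.42, limma adjusted p = 0.547), Rara (-0.38, adjusted p = 0.565) and Nr3c2 (0.45, adjusted p = 0.657). The Creb, Mef2, Nfat and Srf cofactor genes, whose products switch on the Nr4a genes, were measured for 18 of 19 genes with a median of -0.005. Among them Mrtfa had the lowest value (-0.35, limma adjusted p = 0.637) and Mrtfb the highest (0.31, limma adjusted p = 0.736). Known Nr4a targets were measured for 11 of 12 genes, all below the low-signal mark, and none passed, with Id1 at 0.30 (limma adjusted p = 0.696), the steroid transport gene Star at -0.26 and the aldosterone synthase gene Cyp11b2 at -0.18.

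No gene tied to the Ier members passed at 24 h. The list of heat shock genes, which HSF1 controls, was measured for 9 of 12 genes, with Hspb1 at -0.40 (limma adjusted p = 0.659), Hsph1 at 0.28 and a list median of 0.03. The list of PP2A subunits, partners of Ier proteins, was measured for 12 of 13 genes, and the lowest log2 fold changes were those of Ppp2r5b (-0.38), Ppp2r2d (-0.32) and Ppp2r5c (-0.30). The other genes with Ier names had -0.41 (Ier3ip1, limma adjusted p = 0.754) and 0.06 (Ier5l). The receptors of Ang II itself did not pass, at -0.46 for Agtr1b (limma adjusted p = 0.659), -0.29 for Agtr1a and 0.03 for Agtr2.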

How the data were processed

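Per the labels and the methods, RNA of each sample was biotin-labelled and hybridized to 1 Affymetrix array, read with GCOS (version not given in the sources used here) and normalized with RMA. The deposited log2 values, which the authors made in this way, were used unchanged for 22206 probe sets on 15 arrays. A single symbol was assigned to 19572 probe sets by the platform annotation, and 2634 had several or none. Columns of no mapped sample numbered 0. Every probe set was tested with limma 3.58.1 in R 4.3.3 (8.03 prior degrees of freedom, 1 shared spread, no covariates), with Benjamini-Hochberg adjustment over all probe sets. The test was checked on simulated data whose planted changes were larger than those of the members. Whether changes of the members' size would be called was not checked. The members and lists were chosen with earlier results of these data known. Genes named are all members, up to 3 genes of each list with the smallest p at 24 h besides any that passed, and the 3 probe sets most like each member. The single cell type markers and Jun were named outside that rule. RefSeq tables gave positions and promoter windows. The labels do not say whether same-numbered samples were paired, so no pairing was used. Their deviations over all probe sets correlated at -0.04 to 0.05, and in each comparison 0 of 5 pairs exceeded 0.1. This does not show how the samples were prepared. The alternatives were a filter on low values, quantile normalization, median centring, an intensity trend, no moderation, array weights, a replicate block, averaging per gene, Duncan's test as in the methods, only the groups compared, and arrays left out. The number of arrays limits the precision.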

Additional observations from a re-analysis of the deposited data

Results flagged for a closer look

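Of 18 groups of 5 arrays (6 members in 3 groups), 2 held an array far from the others by Dixon's test, where chance flags about 1 in 20 groups. For Nr4a3, control replicate 5 read 5.8 with the next control at 5.4, a gap that made up 0.833 of the range, against a critical value of 0.71. Without this array the log2 fold change of Nr4a3 at 24 h was -0.53 (limma unadjusted p = 0.0426). For Ier2, Ang II 12 h replicate 5 read 4.07 with the next array at 3.8, a gap of 0.9 of the range, and the other arrays of that group were close together at a low signal.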

How the results depend on the processing

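No member was called under any alternative, and the smallest adjusted p over 462 recomputed fold changes was 0.492. Of these, 448 kept their direction and 14 turned, in 6 of 18 results, all of them small. For 24 h against control, Ier2 turned to 0.000465 with array weights and, with both arrays that stood apart left out, to 0.1025 for Ier2 and 0.0525 for Ier5, while Ier3 at 12 h turned to 0.01. With 1 array left out, the log2 fold change ranged from -0.103 to 0.057 for Ier2 and from -0.0705 to 0.107 for Nr4a1 at 24 h, from -0.12 to 0.01 for Ier3 and from -0.0505 to 0.1945 for Ier5 at 12 h, and from -0.2575 to 0.0525 for Nr4a2 at 24 h against 12 h. Nr4a3 at 24 h was lower in all 26 alternatives (-0.728 to -0.4355), and its unadjusted p was under 0.05 in 25 of them, the exception being without Ang II 24 h replicate 5. Ier3 at 24 h had an unadjusted p under 0.05 in 7 of 25. With the replicate block, though the labels name no pairing, Nr4a3 at 24 h kept -0.62 (limma adjusted p = 0.640) and no member call changed. Myc lost its call there, as it did with quantile normalization, with only the groups compared and without both arrays that stood apart. Egr3 lost its call with no moderation, Duncan's test, only the groups compared and without both of those arrays. These recomputations for Myc and Egr3 were added after seeing the data. The cause of the turned directions was not tested. The filter on low values left out Ier2 and Ier3, which have no value there. Low signal over background limits what can be seen for all members but Ier5.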
